A study of Mus musculus with 4 samples.

Results

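The cells described here are dendritic cells that carry the transcripts of the chemokine receptor gene Ccr7 and the actin-bundling gene Fscn1, the pattern of a dendritic cell that has matured and left its sentinel state. They were selected among the leukocytes of a mouse fibrosarcoma from raw counts of unique molecular identifiers (UMIs, each standing for 1 captured RNA molecule). A cell was taken when it had at least 200 genes, at most 10% mitochondrial UMIs, at least 1 UMI of Ccr7, at least 2 of Fscn1, at most 5 of the complement genes C1qa, C1qb and C1qc together and at most 1 of Cd3d, Cd3e and Cd3g together. This rule found 303 cells among the 27705 that passed the gene and mitochondrial limits: 84 and 78 in the 2 control libraries, and 81 and 60 in the 2 double-knockout libraries.

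The study compared untreated tumours grown from fibrosarcoma cells without the retinaldehyde dehydrogenases Raldh1 and Raldh3 (genes Aldh1a1 and Aldh1a3, group Raldh1/3 DKO, written DKO below) with tumours of the Cas9 Control group. Both groups were taken at day 11 after implantation, and live CD45+ cells were sorted from them and profiled with droplet-based 3′ single-cell RNA sequencing. Each group had 4 tumours, pooled as 2 per library, so each group has 2 libraries and the library is the replicate. A comparison of 1 value between 2 and 2 libraries cannot give an exact permutation p below 0.333. Host strain, sex and age, and whether the edited tumour cells were 1 clone, were not given in the sources used here. The edited cells are the tumour cells and the cells described are host leukocytes, so the levels of the targeted genes in them do not check the labels.

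Dendritic cells take up antigen in tissue, and on maturation they raise Ccr7, which guides them along the chemokines Ccl19 and Ccl21 to the draining lymph node. Mature dendritic cells raise costimulatory ligands and chemokines for T cells. They also raise inhibitory molecules such as PD-L1 (gene Cd274), and they are known to shut down transcription of MHC class II genes while class II protein stays at the surface. Retinoic acid, the product of the Raldh enzymes, acts through nuclear receptors, and some dendritic cells of the gut make it themselves with Raldh2 (gene Aldh1a2).

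The 4 libraries held 57458026 to 80032966 UMIs. The selected cells had median depths of 8021.5 and 7154.5 UMIs in the controls and 7323 and 8406.5 in DKO, and no selected barcode was present in more than 1 library, although 20 to 38 barcodes were shared between pairs of libraries over all cells. Levels below, written CPM, are UMIs scaled to a total of 1000000 over all genes in the selected cells of a library, always in the order control 1, control 2, DKO 1 and DKO 2.

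3 of the 303 barcodes held at least 100 UMIs of the marker list of another cell type. A control 1 barcode of 17539 UMIs held 219 UMIs of T and natural killer (NK) cell genes beside 38 of Ccr7. A control 2 barcode of 17837 UMIs held 450 UMIs of macrophage and monocyte genes beside 35 of Ccr7. A DKO 2 barcode of 88136 UMIs, which gave 14.5% of all UMIs of the selected cells in its library, held 625 UMIs of tumour and fibroblast genes, 4 of Fscn1 and 1 of Ccr7. These barcodes meet the rule and stay in the values below, and the main counts are also given without them.

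The limits of the rule were not sharp for every marker. The cells with exactly 2 Fscn1 UMIs, just inside, numbered 6, 3, 5 and 4, and had Ccl22 at 4725, 1669, 497 and 2317 CPM. The cells with Ccr7 but exactly 1 Fscn1 UMI, just outside, numbered 7, 4, 3 and 7, and had Ccl22 at 1488, 635, 153 and 2811 CPM. The far more numerous cells with Ccr7 and no Fscn1 UMI (91, 55, 66 and 66) had the calcium channel subunit gene Cacnb3 at 86.4, 132, 16.9 and 61.2 CPM, where the selected cells had 710, 753, 822 and 800 CPM.

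The selected cells were checked against markers named for this purpose and against 2 other dendritic gates of the same libraries, all without a Ccr7 UMI. The type 2 gate took cells with at least 2 UMIs of the lectin gene Cd209a (283 cells), and the type 1 gate took cells with Xcr1 and Clec9a, the genes of a chemokine receptor and a dead-cell receptor of cross-presenting dendritic cells (66 cells). Since the cells were selected on expression, these levels are a description without a test. Of 15 mature dendritic cell markers, 13 were higher than in the type 2 gate in all 4 libraries and 14 were higher than in the type 1 gate. The exceptions were Ccl17 and Cd86 against the type 2 gate and Cd86 against the type 1 gate. The 15 include Ccr7 and Fscn1, which the rule selected on, so these genes are not evidence for the label. Of 7 general dendritic cell markers, 2 were higher than in the type 2 gate in all 4 libraries. The other 5 (Itgax, H2-Aa, H2-Ab1, Cd74 and Ciita) were higher in no library. Against the type 1 gate 1 of the 7 was higher in all 4 libraries and 5 in none. The label of a mature Ccr7 dendritic cell therefore rests on the mature markers outside the rule, for the summed profile and not for each cell. The 3 barcodes above are exceptions, and a group of cells with high class II RNA is described below.

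**Figure D1:**
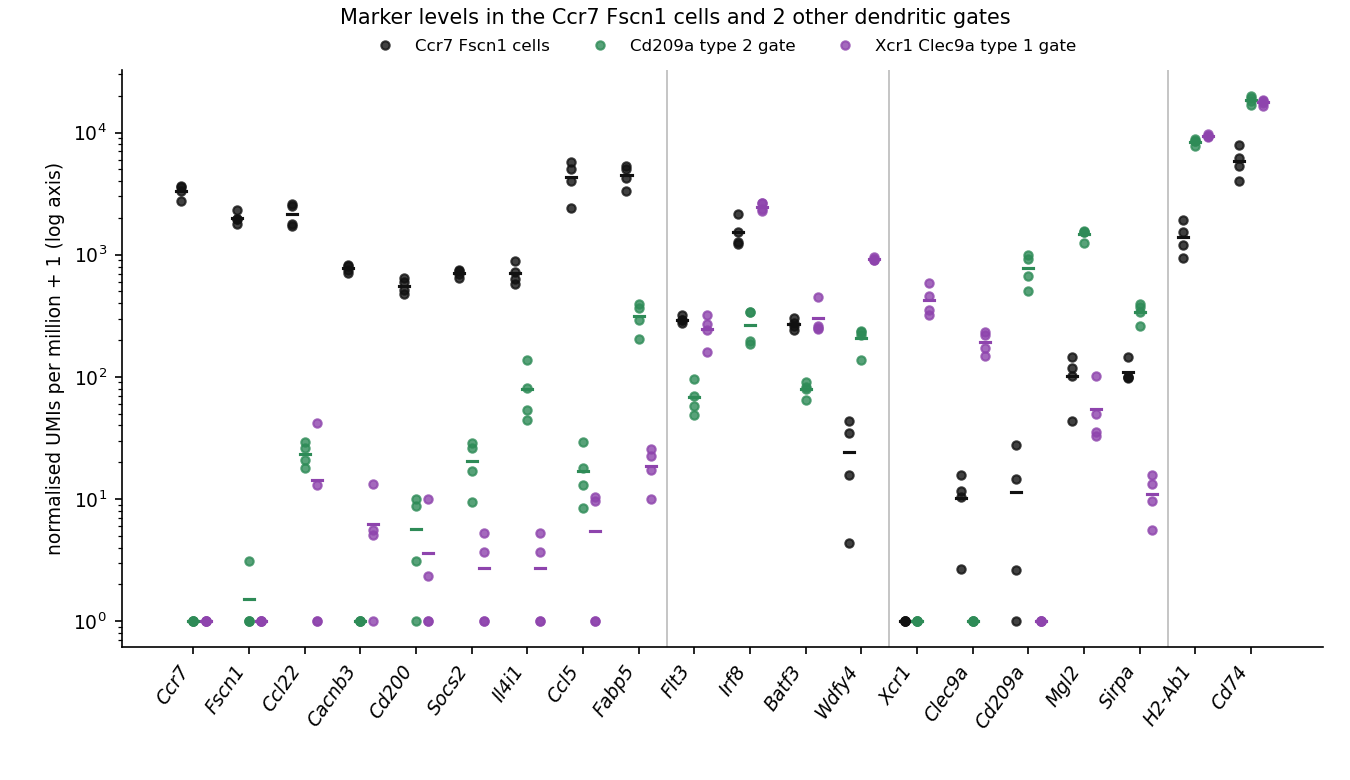
CPM plus 1 (log axis) of 20 genes in the Ccr7 Fscn1 cells and in the Cd209a type 2 and Xcr1 Clec9a type 1 gates; each point is 1 library and each bar the mean of the 4 libraries. From left to right stand mature markers, dendritic cell and transcription factor genes, genes of the other gates, and MHC class II genes; Cacnb3 lies between 710 and 822 in the Ccr7 Fscn1 cells and at 0 UMIs in the type 2 gate, while H2-Ab1 lies between 942 and 1930 against a mean of 8428 in the type 2 gate.

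The genes of the selection rule were, by construction, present in these cells. Ccr7 was at 3577, 2755, 3302 and 3629 CPM and Fscn1 at 1949, 1779, 1974 and 2343 CPM. The third marker, Ccl22, was not part of the rule. Ccl22 encodes a chemokine for CCR4-bearing T cells, and it was at 2517, 1725, 1772 and 2616 CPM against means of 22.6 CPM in the type 2 gate and 13.2 CPM in the type 1 gate. A Ccl22 UMI was present in 79 of 84, 70 of 78, 75 of 81 and 52 of 60 cells, so nearly every selected cell of each library carried it. In the T cell gate, which should lack it, the share was 1.14, 0.42, 0.527 and 1.25%.

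Several genes were far higher in the selected cells than in the type 2 gate. Cacnb3 had no UMI in the 283 type 2 cells, and its mean of 771 CPM was at least 830-fold higher than in that gate, with 3 UMIs over the gate's 4 libraries taken as the floor. Serpinb6b, a gene of the serine protease inhibitor family, had a mean of 1762 CPM against 4.28 CPM in the type 2 gate and 167 CPM in the type 1 gate. Ccl5, a chemokine for T cells and monocytes, was at 4029, 5791, 4992 and 2427 CPM against a mean of 16.1 CPM in the type 2 gate. The immunoregulatory glycoprotein gene Cd200 was at 511, 472, 639 and 594 CPM against a mean of 4.72 CPM, and the tetraspanin gene Cd63 at 1053, 983, 1004 and 1052 CPM against 11.7 CPM. The cytokine signalling inhibitor Socs2 (mean 703 CPM) and Il4i1, a secreted amino acid oxidase that dampens T cells (mean 705 CPM), were at 19.4 and 78.5 CPM in the type 2 gate. The fatty acid carrier Fabp5 was at 5319, 5067, 4205 and 3339 CPM against a mean of 313 CPM.

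Cytokines and their receptors split the gates as well. Il12b, which encodes a subunit of interleukin 12, was at 533, 79.0, 374 and 473 CPM, with no UMI in the type 2 gate and a mean of 44.3 CPM in the type 1 gate. Control 2 stood well below the other 3 libraries. It came from few cells, 28 of 84, 11 of 78, 20 of 81 and 15 of 60, and no T cell of any library had a UMI of it. The receptor gene Il7r was at 338, 407, 351 and 308 CPM and had no UMI in the type 1 gate. Il1b, an inflammatory cytokine, did not set these cells apart: it was at 486, 586, 623 and 392 CPM against means of 735 and 484 CPM in the type 2 and type 1 gates.

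Costimulatory and inhibitory ligands were both present. Cd274 was at 449, 472, 590 and 491 CPM against a mean of 115 CPM in the type 2 gate, and its relative Pdcd1lg2 (PD-L2) at 196, 143, 244 and 231 CPM against 78.7 CPM. Cd40, the receptor for T cell help, was at 372, 247, 309 and 257 CPM against 91.2 CPM. Cd86, a ligand for CD28, was at 250, 276, 252 and 150 CPM, which overlapped the type 2 gate (mean 220 CPM). The NF-kappaB subunit Relb, which drives dendritic cell maturation, was at 522, 568, 531 and 547 CPM against 60.6 CPM.

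The genes that mark dendritic cell lineages gave a mixed picture. The cytokine receptor gene Flt3 was at 290, 276, 289 and 318 CPM, close to the type 1 gate (mean 247 CPM) and above the type 2 gate (67.3 CPM). Irf8, the transcription factor of the type 1 lineage, was at 1520, 1221, 2167 and 1266 CPM, between the type 2 gate (264 CPM) and the type 1 gate (2479 CPM). Its partner Batf3 had a mean of 272 CPM against 78.0 and 302 CPM. The surface markers of that lineage were nearly absent, since Xcr1 had 0 UMIs and Clec9a was at 9.39, 1.68, 10.6 and 14.8 CPM. Among type 2 genes, the membrane protein genes Tmem176a and Tmem176b (means 511 and 475 CPM) were above the type 2 gate (230 and 263 CPM), whereas Mgl2, a lectin gene, had a mean of 101 CPM against 1469 CPM.

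MHC class II transcripts were low for a dendritic cell. H2-Ab1, the class II beta chain of I-A, had a mean of 1402 CPM against 8428 CPM in the type 2 gate and 9440 CPM in the type 1 gate, and was lower in all 4 libraries. Ciita, the transactivator that switches class II genes on, had a mean of 61.1 CPM against 402 and 393 CPM. MHC class I showed no such shortfall: B2m, the class I light chain, had a mean of 4378 CPM against 2201 and 1447 CPM.

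Genes of other cells were present at low and unequal levels. The 18 macrophage and monocyte genes summed to 668, 1389, 446 and 313 CPM, of which the control 2 barcode named above gave 450 of 827 UMIs in its library, and 1 or 2 of the 18 had no UMI in a given library. The 18 T and NK genes summed to 406, 166, 104 and 87.3 CPM and the 14 tumour and fibroblast genes to 68.4, 82.3, 30.2 and 1072 CPM. Without the 3 barcodes the macrophage sums were 648, 653, 446 and 299 CPM, the T and NK sums 115, 168, 104 and 86.7 CPM and the tumour sums 67.3, 62.4, 30.2 and 50.1 CPM. The macrophage sum thus stayed higher in the controls, and its part in the results below was not tested apart from the values given beside them.

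The selected cells fell into 5 groups when 300 of them were clustered on 1395 variable genes without the rule genes, the MHC class II genes and the genes that differed between DKO and control at an unadjusted p below 0.05. The groups are described by their leading genes and carry no cell type name. Group 1 (26, 34, 35 and 13 cells) led with the selenoprotein gene Selenom and with Ccl5, at 8521 CPM against 2713 CPM in the other selected cells. Group 2 (13, 6, 11 and 11 cells) held most of the Il12b, at 1580 CPM against 116 CPM, together with the costimulatory ligands Cd70 and Tnfsf9, with the cytokine subunit gene Ebi3 and with Cd40. Group 3 (21, 16, 19 and 7 cells) led with Cystm1 and Ccl17, a chemokine for CCR4-bearing T cells like Ccl22, and held more Cxcr4 and Aldh1a2. Group 4 (16, 12, 8 and 23 cells) had Tcf7, Crispld2 and Sox4 among its leading genes. Group 5 (7, 9, 8 and 5 cells) led with Ly6a, Ciita and the interferon-induced chemokine Cxcl9, and every cell of it had an H2-Ab1 UMI.

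The groups differed widely in class II level. H2-Ab1 was at 7454, 4638, 5357 and 7455 CPM in group 5 and at 711, 389, 241 and 144 CPM in group 1. A group of 8.43, 11.7, 9.88 and 8.47% of the selected cells thus carried much of the class II RNA. Ciita in group 5 was at 618, 291, 301 and 581 CPM, which overlapped the type 2 gate (456, 415, 330 and 409 CPM). Ccl22 in group 5 was at 1607, 900, 2291 and 1380 CPM. Ccl17 was at 2087, 937, 726 and 1841 CPM in group 3 and at 100, 0, 0 and 91.2 CPM in group 4. Irf8 was at 2315, 2723, 3277 and 2507 CPM in group 2 and at 572, 237, 1130 and 495 CPM in group 4. Cd274 varied less, between 300.5 and 762 CPM over all groups and libraries. Group 4 took 39.0% of the cells in DKO 2 against 19.3, 15.6 and 9.88% in the other libraries. In each of the 5 groups the shares of the control and DKO libraries overlapped. The grouping left out the genes that differed between DKO and control, so this overlap says nothing on groups set by those genes.

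**Figure D2:**
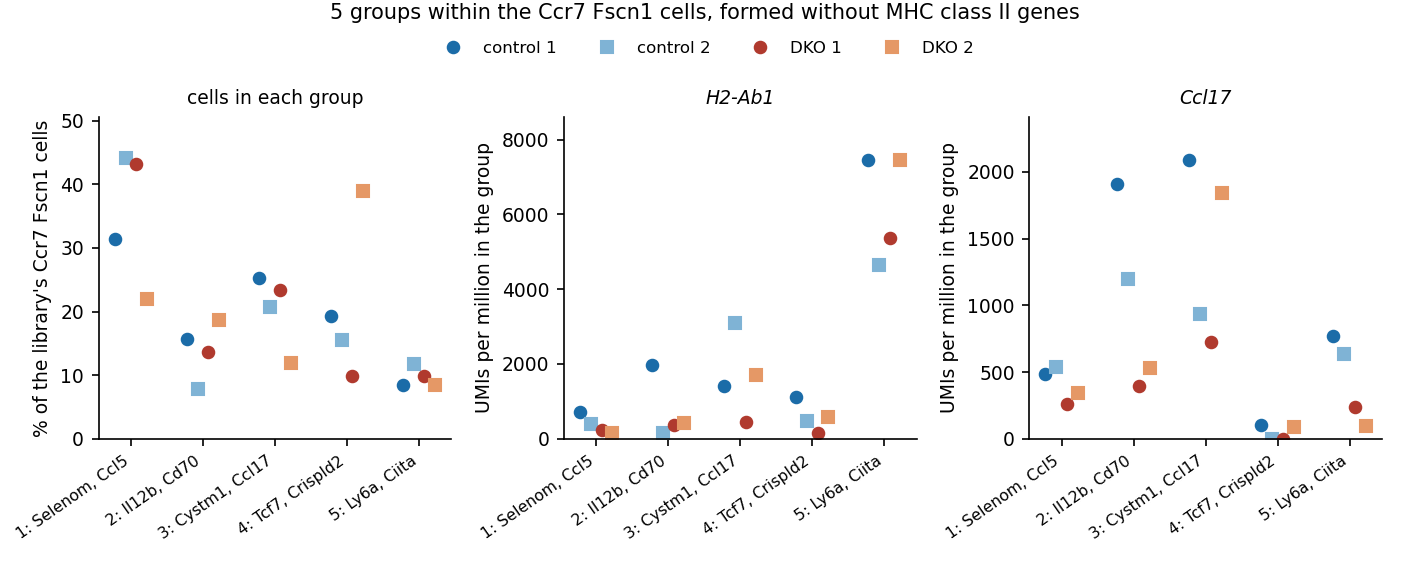
Left, the share of each library's Ccr7 Fscn1 cells in each of 5 groups; middle and right, H2-Ab1 and Ccl17 in CPM within each group; each point is 1 library. Group 5 holds the highest H2-Ab1 in every library, and control and DKO libraries overlap in it, while in group 1 both controls (711 and 389) lie above both DKO libraries (241 and 144).

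The first comparison asked whether Ccr7 Fscn1 cells were more or less frequent among the leukocytes of DKO tumours. They made up 1.01 and 0.974% of the filtered cells in the controls and 1.23% in both DKO libraries. The means were 0.995% ± 0.0287 (SD, n = 2) and 1.23% ± 0.000712, a difference of 0.240 percentage points that reached the smallest p the design allows (two-sided exact permutation p = 0.333). Each library's 95% exact binomial interval, which covers counting error only, overlapped that of every other library, for example 0.810 to 1.26% in control 1 and 0.981 to 1.53% in DKO 1. When each cell was thinned to 2000 UMIs and the rule applied again, the shares were 0.844, 0.739, 1.04 and 1.12%. As a share of the 3 dendritic gates together, the order turned: 42.6 and 60% in the controls and 58.7 and 32.1% in DKO (difference -5.93 percentage points, exact permutation p = 0.667).

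The second comparison asked which genes of the Ccr7 Fscn1 cells differed between DKO and control tumours. UMIs were summed over the selected cells of each library, and 5853 genes with enough counts were tested with edgeR's quasi-likelihood F test and Benjamini-Hochberg adjustment. No gene passed an adjusted p of 0.05 (0.0% of the genes tested), and the smallest adjusted p was 0.0667. DESeq2 called 1 gene, the granzyme gene Gzma of T and NK cells, lower in DKO at 219, 43.7, 3.02 and 4.94 CPM. The control 1 barcode described above held 219 of the 303 T and NK list UMIs of its library, and without the 3 barcodes Gzma was at 5.5, 43.3, 3.02 and 5.78 CPM, too low to be tested. At an unadjusted p below 0.05, edgeR found 359 genes (6.13%), of which 170 were higher in DKO (2.9%) and 189 lower (3.23%). The control and DKO libraries did not overlap for 37.2% of the genes tested: 25.0% of all genes tested were higher and 12.1% lower in both DKO libraries. With 2 against 2 libraries, such a split has an exact permutation p of 0.333 for any gene. Overlap was judged on CPM, while the fit also scaled the libraries by edgeR's TMM factors (0.947, 0.972, 1.01 and 1.07). By the fit, 50.2% of the log2 differences lay above 0 and 49.8% below. The excess of higher genes in CPM was thus not seen in the log2 differences. Without the 3 barcodes rich in other cells' genes, 2 of 5717 genes were called (0.035%), both lower in DKO: Lyz2 and H2-Eb2. At an unadjusted p below 0.05 there were then 5.93% of genes, 3.01% higher and 2.92% lower, and 36.7% did not overlap (23.9% higher, 12.9% lower). Log2 differences (DKO over control) carry the standard error of the fit.

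Of the mature and dendritic cell genes described above, Ccl22, Cd63, Relb and Flt3 had overlapping control and DKO libraries. Cacnb3 and Cd200 were higher in both DKO libraries by CPM, which carry no TMM factor, without passing an unadjusted p of 0.05. Below, lower and higher refer to an unadjusted p below 0.05 or to libraries that did not overlap, as stated with each gene. In the main edgeR fit of DKO against control, with all cells included, none was called.

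Class II genes are switched on by Ciita, which acts through conserved promoter elements that include the X box and the Y box. 7 of the 13 class II genes tested were lower in DKO at an unadjusted p below 0.05 and none was higher, against 3.23% and 2.9% of all genes. 11 of the 13 had a log2 difference below 0, against 49.8% of all genes, and their median was -0.61 against 0.00 for all genes. The same counts, 7 lower and 11 below 0, were found without the 3 barcodes, where the median was -0.51 and 49.2% of all genes lay below 0. Each of the 7 lay lower in both DKO libraries than in both controls, which 12.1% of all genes did.

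H2-Eb2 (chr17:34325665-34341412, plus strand, mouse build GRCm38, annotated by GENCODE vM21) encodes a second class II beta chain next to H2-Eb1. It was at 53.7, 47.0, 6.03 and 9.88 CPM, from 40, 28, 4 and 6 UMIs, and the 2 DKO libraries lay far below the 2 controls. The log2 difference was -2.76 ± 0.42 (edgeR adjusted p = 0.0667), and -2.66 ± 0.44 without the 3 barcodes (edgeR adjusted p = 0.0208). A UMI of H2-Eb2 was present in 27 of 84, 15 of 78, 4 of 81 and 3 of 60 cells. At 2000 UMIs per cell the shares were 11.3, 12, 1.32 and 1.79%, against 0.169, 0, 0 and 0% in T cells. The type 2 gate had H2-Eb1 at a mean of 6326 CPM and H2-Eb2 at 2.41 CPM, so the ratio of both genes differed between these cells. Leaving out each library in turn kept the log2 difference between -3.11 and -2.49. Within the groups of cells H2-Eb2 was at 60.3, 97.5, 10.9 and 93.9 CPM in group 3, where DKO 2 overlapped the controls. Control and DKO libraries did not overlap in group 1 (36.6, 14.2, 0 and 0 CPM, from 7, 3, 0 and 0 UMIs). Nor did they in group 5 (124, 152, 17.2 and 0 CPM, from 10, 12, 2 and 0 UMIs). Group 2 held 8, 0, 0 and 0 UMIs and group 4 held 3, 0, 0 and 1, so control 2 did not lie above DKO in these.

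The more abundant class II genes differed less. H2-Eb1 (chr17:34305867-34316674, plus strand), the beta chain of I-E, was at 3161, 2288, 1746 and 1581 CPM, a log2 difference of -0.82 ± 0.22 (edgeR adjusted p = 0.613). H2-Ab1 (chr17:34257689-34269419, plus strand) was at 1930, 1529, 1206 and 942 CPM (-0.79 ± 0.22). H2-Aa (chr17:34282744-34287823, minus strand), the alpha chain of I-A, was at 3664, 2747, 2367 and 2149 CPM (-0.61 ± 0.22). In all 3 both DKO libraries lay below both controls, and none passed the adjusted test. Detection at 2000 UMIs per cell overlapped between the groups: 55, 49.3, 36.8 and 50% of cells had an H2-Ab1 UMI and 83.8, 69.3, 69.7 and 69.6% an H2-Aa UMI. Cd74, the invariant chain that guides class II to the endosome, was at 7957, 6149, 5348 and 4020 CPM (-0.70 ± 0.24). H2-DMa, a subunit of the peptide-loading chaperone, was at 188, 160, 128 and 65.9 CPM (-0.94 ± 0.29). Ciita itself (chr16:10480059-10528418, plus strand) was at 87.2, 60.5, 57.3 and 39.5 CPM (-0.72 ± 0.32). Its UMIs came from 10 of 84, 10 of 78, 6 of 81 and 4 of 60 cells, so the level rests on a small number of cells in each library. The control and DKO libraries overlapped for H2-DMb1, at 51.0, 31.9, 54.3 and 42.8 CPM, for H2-DMb2, H2-Oa and H2-Ob and for the proteases Ctss (747, 761, 763 and 636 CPM) and Lgmn. In the T cell gate, H2-Ab1 was at 233, 159, 122 and 99 CPM, also lower in both DKO libraries. The part of this background in the class II difference was not tested.

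**Figure D3:**
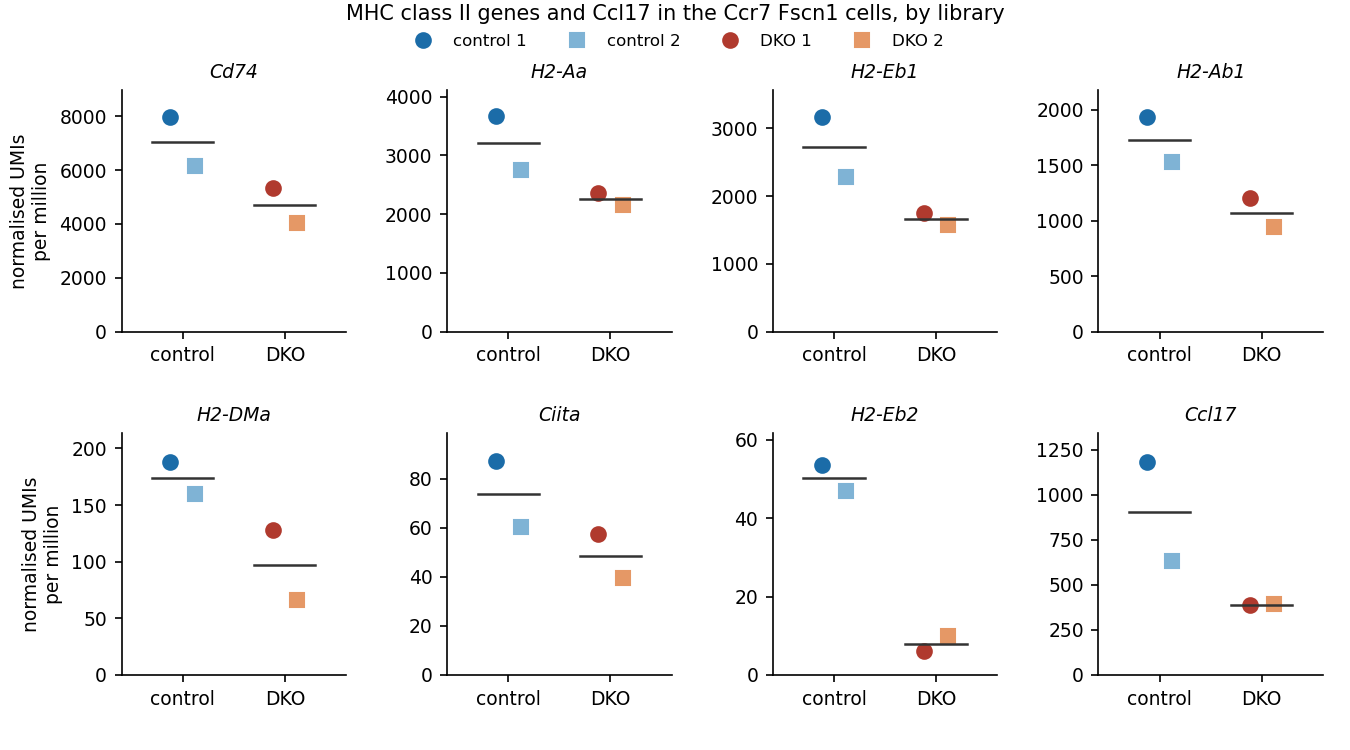
CPM of 7 MHC class II pathway genes and Ccl17 in the Ccr7 Fscn1 cells; each point is 1 library, each bar the mean of a group, and each axis starts at 0. The 7 are those of 13 class II genes tested that were lower at an unadjusted edgeR p below 0.05, and Ccl17 was too. That both DKO libraries lie below both controls in all 8 panels thus follows from the choice of genes. The widest relative gap is at H2-Eb2 (53.7 and 47.0 against 6.03 and 9.88).

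Within the groups of cells, the difference in H2-Ab1 was seen in group 1 (711 and 389 CPM in the controls, 241 and 144 in DKO), whereas in groups 2 to 5 the control and DKO libraries overlapped. Group 5, with the highest class II level, was at 7454 and 4638 CPM in the controls and 5357 and 7455 CPM in DKO. With 5 to 35 cells per group and library, these values are a description.

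The promoters of 3 class II chain genes, chosen by name, are shown as examples. All 3 genes were lower in both DKO libraries, as were H2-Ab1, Cd74, H2-DMa and Ciita, which are not shown. The sequences are from the RefSeq promoter table for build GRCm38.p6 and give the 150 bases before the start site, 5′ to 3′ on the gene's strand. Capitals mark GCAACT, letters of the X box, and CTGATTGG, the Y box with its inverted CCAAT.
H2-Aa: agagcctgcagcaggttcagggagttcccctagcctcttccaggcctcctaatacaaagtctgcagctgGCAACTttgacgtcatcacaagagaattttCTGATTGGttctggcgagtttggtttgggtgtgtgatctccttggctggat
H2-Eb1: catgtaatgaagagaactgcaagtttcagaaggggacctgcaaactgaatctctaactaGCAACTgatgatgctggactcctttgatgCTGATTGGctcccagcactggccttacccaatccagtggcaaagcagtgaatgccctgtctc
H2-Eb2: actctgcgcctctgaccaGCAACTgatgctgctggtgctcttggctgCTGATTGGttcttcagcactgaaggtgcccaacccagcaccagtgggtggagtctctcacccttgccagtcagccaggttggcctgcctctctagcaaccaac
They lie at chr17:34287824-34287973 (minus strand), chr17:34305717-34305866 (plus strand) and chr17:34325525-34325674 (plus strand). The motifs are separated by 24 bases in H2-Aa and by 23 bases in H2-Eb1 and H2-Eb2. In windows from 250 bases before to 50 after the start, on either strand, GCAACT was in 10.9% and CTGATTGG in 4.1% of 32851 windows. Both in this order, 15 to 40 bases apart, were in 9 windows (0.0274%), of Aldh4a1, Gstz1, H2-Aa, H2-Eb1, H2-Eb2, Hmgb2, Mrps9, Narf and Tigd3. Of the others, Hmgb2, a chromatin protein gene, was at 110, 124, 142 and 138 CPM in the selected cells. Cd74, H2-DMa and Ciita are not among the 9, although they were lower in both DKO libraries too. The match describes letters and not binding, and its relation to the DKO difference was not tested. H2-Ab1 had no entry in that table.

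Among chemokines, 3 of the 14 chemokine and receptor genes tested were lower in DKO at an unadjusted p below 0.05 and 1 was higher, against 3.23% and 2.9% of all genes, and 12 had a log2 difference below 0 (49.8% of all genes). With the 3 barcodes left out 8 of 13 were below 0, 3 lower and 1 higher. Ccl17 (chr8:94810453-94812036, plus strand) was at 1180, 633, 389 and 392 CPM, a log2 difference of -1.33 ± 0.27 (edgeR adjusted p = 0.325), and -1.22 ± 0.26 without the 3 barcodes. Both DKO libraries lay below both controls, and control 1 lay far above control 2. Without control 1 the difference was -0.79. Its neighbour on chromosome 8 and fellow CCR4 ligand, Ccl22, was at 2517, 1725, 1772 and 2616 CPM, with overlapping groups. The share of cells with a Ccl17 UMI at equal depth was 45.0, 28.0, 25.0 and 23.2%, against at most 0.440% in T cells. Ccl9 (37.6, 87.4, 7.54 and 26.3 CPM) and Ccl8 (61.7, 111, 63.3 and 46.1 CPM), monocyte attractants, were the other lower genes. Ccl8 was at 73.8, 106, 114 and 48.9 CPM in T cells, about its level here. Whether the Ccr7 Fscn1 cells themselves express Ccl8 was not tested. Cxcr4 (chr1:128588199-128592293, minus strand), the receptor for Cxcl12, was at 44.3, 28.6, 113 and 79.0 CPM (1.27 ± 0.32, adjusted p = 0.564). A UMI of Cxcr4 was present in 23 of 84, 12 of 78, 27 of 81 and 19 of 60 cells, and T cells carried it at a mean of 202 CPM. At equal depth 29.8, 26.8, 32.9 and 34.7% of T cells had a Cxcr4 UMI, also higher in both DKO libraries. The part of T cell RNA in the Cxcr4 difference was not tested. The type 2 gate had Cxcr4 at 32.1, 25.3, 81.4 and 61.4 CPM, a log2 difference of 1.15, and the difference of differences was -0.03 ± 0.39 (edgeR adjusted p = 1.0).

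Of the 35 maturation and migration genes, all tested, 5 were lower at an unadjusted p below 0.05 and none higher, against 3.23% and 2.9% of all genes, and 15 had a log2 difference above 0. Both DKO libraries lay above both controls for 10 of the 35 and below them for 8, against 25.0% and 12.1% of all genes. The 5 were Ccl17, Fabp5, Anxa3, Il4i1 and Nudt17. Anxa3, an annexin gene, was at 404, 529, 255 and 349 CPM (-0.74 ± 0.22). Nudt17, a hydrolase gene, was at 126, 113, 67.8 and 70.8 CPM (-0.89 ± 0.24). Il4i1 was at 892, 721, 574 and 632 CPM (-0.53 ± 0.21) and Fabp5, which also delivers retinoic acid to nuclear receptors, at 5319, 5067, 4205 and 3339 CPM (-0.56 ± 0.22). In all 4 the libraries of the 2 groups did not overlap, and none passed the adjusted test. The list had, without the 3 barcodes, 4 lower and 3 higher genes, and its median went from -0.07 to 0.04.

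Costimulation and its checks showed few differences. At an unadjusted p below 0.05, the limit used for the counts here, 2.9% of all genes were higher and 3.23% lower. Cd70, the ligand of CD27, was at 42.9, 58.8, 25.6 and 26.3 CPM (-1.06 ± 0.34) and was the 1 gene of 14 in its list at an unadjusted p below 0.05. It came from 11 of 84, 7 of 78, 10 of 81 and 7 of 60 cells. None of the 16 cytokine and cytokine receptor genes and none of the 22 MHC class I genes was at an unadjusted p below 0.05 in either direction. B2m was at 3564, 3911, 4764 and 5273 CPM, with both DKO libraries above both controls, and did not pass an unadjusted p of 0.05. Of the 26 NF-kappaB genes 1 was higher, Tnip3, at 327, 274, 461 and 426 CPM. The 1 lower was Bcl2a1d, at 381, 650, 268 and 140 CPM, whose family members Bcl2a1a, Bcl2a1b and Bcl2a1d are near-identical copies, so the split of their counts is uncertain.

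**Figure D4:**
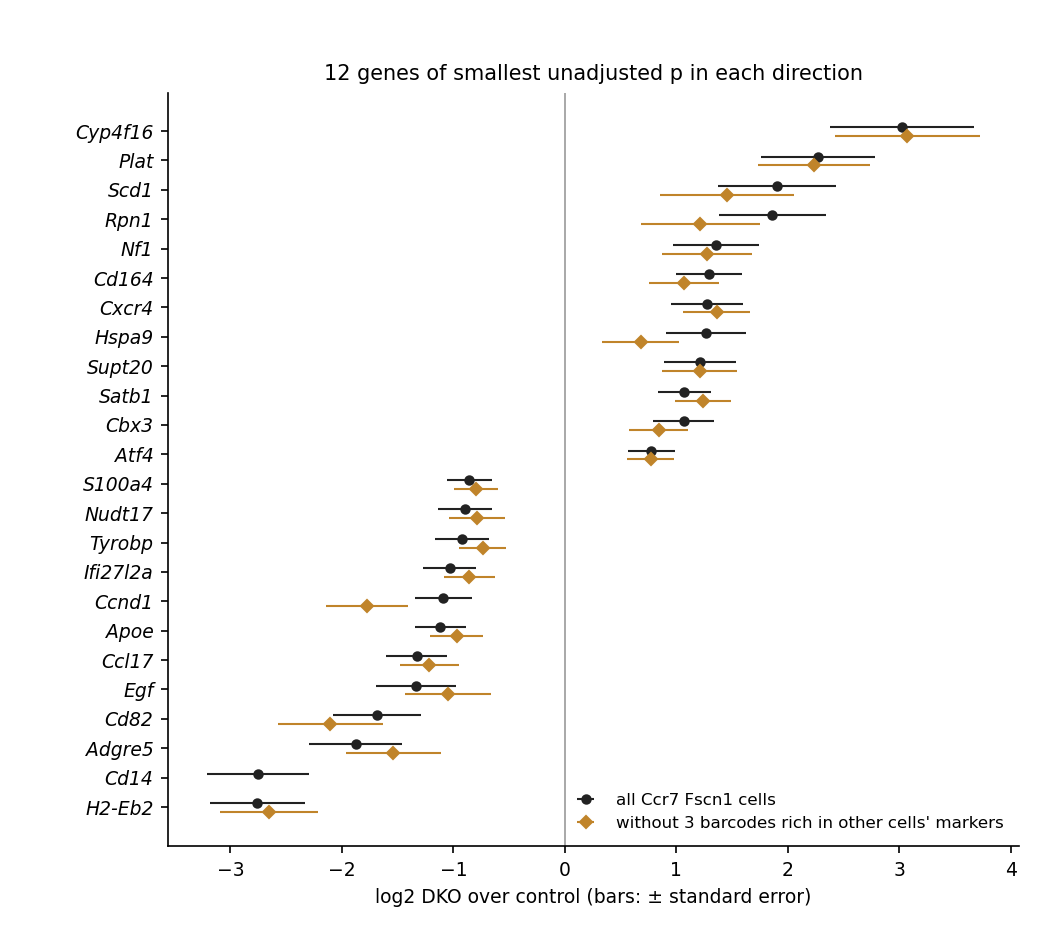
The log2 difference between DKO and control with its standard error, for the 12 genes of smallest unadjusted p in each direction among those with at least 20 CPM in the higher group and no overlap; black, all Ccr7 Fscn1 cells, and orange, without the 3 barcodes rich in other cells' genes. H2-Eb2 stays near -2.7 in both, while Hspa9, Rpn1 and Scd1 lie closer to 0 without the barcodes, and Cd14 had too few UMIs to be tested without them.

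Among the 12 genes of smallest unadjusted p that were higher in DKO, Satb1 (chr17:51736187-51833290, minus strand), a chromatin organiser best known from T cells, was at 63.1, 77.3, 158 and 158 CPM (1.07 ± 0.24, adjusted p = 0.325). It was found in 21 of 84, 19 of 78, 40 of 81 and 19 of 60 cells, and in T cells at a mean of 587 CPM. At equal depth 56.3, 49.0, 66.0 and 61.4% of T cells had a Satb1 UMI, also higher in both DKO libraries. The part of T cell RNA in the Satb1 difference was not tested. Atf4, the transcription factor of the amino acid stress response, was at 190, 181, 311 and 377 CPM (0.77 ± 0.21). Plat, the tissue plasminogen activator, was at 13.4, 8.40, 31.7 and 87.3 CPM (2.27 ± 0.51), and Cyp4f16, a cytochrome P450 gene, at 4.02, 1.68, 31.7 and 23.1 CPM (3.02 ± 0.65). The sialomucin gene Cd164 was at 30.9, 33.6, 79.9 and 90.6 CPM (1.29 ± 0.29). These genes kept their direction without the tumour-like barcode of DKO 2 and the other 2. Some were smaller without them: Rpn1, a glycosylation complex gene, went from 1.86 ± 0.48 to 1.21 ± 0.53 and the mitochondrial chaperone Hspa9 from 1.26 ± 0.36 to 0.68 ± 0.34. The lipid desaturase gene Scd1 went from 1.90 ± 0.53 to 1.45 ± 0.60 and the chromatin protein gene Cbx3 from 1.06 ± 0.27 to 0.84 ± 0.26. The remaining genes of the 12 were Supt20, Nf1 and Cxcr4.

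The lists for stress, hypoxia and survival are given next, with genes counted as higher or lower at an unadjusted p below 0.05. Of all genes tested, 2.9% were higher and 3.23% lower at that limit. Of 28 dissociation stress genes tested, which rise when tissue is digested at body temperature, 4 were higher and none lower, and 20 had a log2 difference above 0, against 50.2% of all genes, with a median of 0.30. Both DKO libraries lay above both controls for 12 of the 28, against 25.0% of all genes. Jun was at 231, 269, 342 and 468 CPM (0.59 ± 0.22) and Klf4 at 103, 133, 181 and 196 CPM (0.57 ± 0.22). With the 3 barcodes left out 25 of the 28 were above 0, against 50.8% of all genes. Of 24 hypoxia and glycolysis genes, Vegfa (41.6, 20.2, 84.4 and 67.5 CPM, 1.16 ± 0.35) and the glucose transporter Slc2a1 (4.02, 11.8, 30.2 and 24.7 CPM, 1.74 ± 0.54) were higher and none was lower. Of 22 apoptosis and survival genes, the death-receptor inhibitor Cflar (294, 287, 496 and 392 CPM) and the pro-apoptotic genes Bcl2l11 (83.2, 85.7, 199 and 105 CPM) and Bbc3 (4.02, 10.1, 21.1 and 23.1 CPM) were higher, and Bcl2a1d was lower. In each of the higher genes named here both DKO libraries lay above both controls.

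Retinoid genes were examined because the tumour enzymes that make retinoic acid were removed. In the Ccr7 Fscn1 cells Aldh1a1 had 0 UMIs in all 4 libraries and Aldh1a3 was at 2.68, 1.68, 0 and 1.65 CPM, from 2, 1, 0 and 1 UMIs. Aldh1a2, the host gene for Raldh2, was at 48.3, 26.9, 28.6 and 52.7 CPM, with overlapping groups. It was found in 11 of 84, 7 of 78, 11 of 81 and 13 of 60 cells, against means of 5.97 and 2.76 CPM in the type 2 and type 1 gates, and 1 of 2678 T cells. Of 10 retinoid genes with enough counts 1 was higher and 1 lower at an unadjusted p below 0.05, against 2.9% and 3.23% of all genes. The higher gene was Rara, a retinoic acid receptor, at 9.39, 11.8, 24.1 and 23.1 CPM (1.05 ± 0.48), and the lower was Fabp5. The retinoic acid-induced genes Dhrs3 (28.2, 40.3, 25.6 and 44.5 CPM) and Tgm2 (32.2, 26.9, 58.8 and 19.8 CPM) overlapped between groups, and Cyp26a1 and Stra6 had no UMI.

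Several lower genes were detected about as often in T cells, which should lack them. Lyz2, a macrophage gene for lysozyme, was at 158, 558, 40.7 and 19.8 CPM (-3.62 ± 0.90, adjusted p = 0.799), and -2.22 ± 0.30 without the 3 barcodes (edgeR adjusted p = 0.00333). At 2000 UMIs per cell 16.3, 29.3, 6.58 and 5.36% of Ccr7 Fscn1 cells had a UMI of it, against 16.9, 28.8, 7.23 and 6.96% of T cells. The shares of both cell types thus lay close together in each library, and the part of free RNA in the difference was not tested. The T cells had to lack C1qa, C1qb and C1qc UMIs, whereas the Ccr7 Fscn1 cells could hold up to 5. The T cell shares here were therefore not taken under the same limit on these macrophage genes. Apoe, a lipid carrier of macrophages, was at 174, 165, 87.5 and 80.7 CPM (-1.12 ± 0.23), with 32.5, 21.3, 18.4 and 14.3% of cells against 29.8, 32.7, 15.1 and 19.6% of T cells. Cd14 was at 34.9, 47.0, 6.03 and 6.59 CPM, with 2.50, 1.33, 1.32 and 1.79% against 2.54, 3.74, 1.42 and 0.949%. Of the 10 macrophage and monocyte genes tested, 5 were lower at an unadjusted p below 0.05, against 3.23% of all genes. All 10 had a log2 difference below 0, against 49.8% of all genes, with a median of -1.50. Without the 3 barcodes 3 of 9 were lower and the median was -0.64. The share of cells with a Ccl17 or H2-Eb2 UMI lay above that of T cells in every library.

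**Figure D5:**
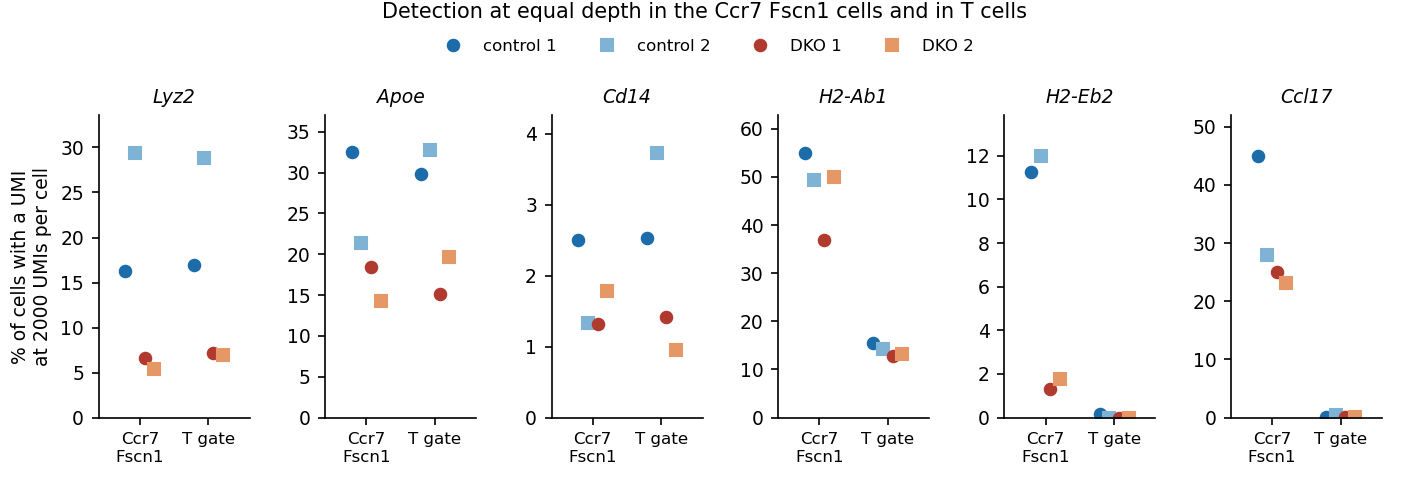
The share of cells with at least 1 UMI after thinning each cell to 2000 UMIs, for 6 genes in the Ccr7 Fscn1 cells and in the T cell gate; each point is 1 library and each axis starts at 0. Lyz2, Apoe and Cd14 lie at similar shares in both cell types of a library, while H2-Ab1, H2-Eb2 and Ccl17 lie higher in the Ccr7 Fscn1 cells.

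Other genes among the 12 of smallest unadjusted p that were lower in DKO were Adgre5, Ifi27l2a, Ccnd1, Cd82, S100a4, Tyrobp, Egf and Nudt17. S100a4, a calcium-binding motility protein, was at 1452, 1297, 786 and 848 CPM (-0.86 ± 0.20, adjusted p = 0.325), while T cells held 837, 831, 743 and 612 CPM. Ccnd1, cyclin D1, was at 118, 168, 64.8 and 79.0 CPM (-1.09 ± 0.25), and -1.78 ± 0.37 without the 3 barcodes. Tyrobp, the signalling adaptor of myeloid receptors, was at 663, 722, 484 and 298 CPM (-0.92 ± 0.24). Ifi27l2a, an interferon-induced gene, was at 275, 250, 163 and 112 CPM (-1.04 ± 0.24) against a mean of 855 CPM in T cells. Of 20 type I interferon genes, Ifi27l2a and Rsad2 were lower at an unadjusted p below 0.05, against 3.23% of all genes. Isg15, at 243, 464, 422 and 137 CPM, overlapped.

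The third comparison asked whether the DKO difference of the Ccr7 Fscn1 cells was unlike that of the other dendritic gates, by a class-by-group term with the library as a block. Against the type 2 gate 5 of 7207 genes were called (0.0694%, with 5.38% at an unadjusted p below 0.05), all with a lower log2 difference in the Ccr7 Fscn1 cells, and 2 of these had fewer than 10 UMIs in a gate and group. Without the 3 barcodes 9 of 7091 were called (0.127%, with 4.13% at an unadjusted p below 0.05). H2-Ab1 was not among them: it was at 8843, 8568, 8550 and 7752 CPM in the type 2 gate, and the difference of differences was -0.65 ± 0.20 (edgeR adjusted p = 0.535). For Ccl17, at 305, 139, 502 and 169 CPM in the type 2 gate, it was -1.71 ± 0.46 (edgeR adjusted p = 0.68). Against the type 1 gate 14 of 7154 genes were called (0.196%, with 4.24% at an unadjusted p below 0.05), among them H2-Ab1, H2-Eb1 and Cd74, and 5 of the 14 had fewer than 10 UMIs in a gate and group. H2-Ab1 was at 9388, 9420, 9771 and 9183 CPM in that gate, and the difference of differences was -0.82 ± 0.20 (edgeR adjusted p = 0.0209). Without the 3 barcodes it was -0.69 ± 0.20 (edgeR adjusted p = 0.312), no longer called, and the type 1 gate held 14, 5, 16 and 31 cells. Without the 3 barcodes 4 of 6759 genes were called against the type 1 gate (0.0592%, with 3.37% at an unadjusted p below 0.05), namely Ccl17, Ccnd1, Rgs1 and Lyz2. Ccl17 had 0 UMIs in the control cells and 24 in the DKO cells of that gate, so no size is given for it.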

How the data were processed

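The deposited files hold raw UMI counts per gene and cell in 4 libraries, made with Cell Ranger per the submitters' processing notes, with matrix software 3.1.0 per the file headers. Those notes also list, with no role, the genome builds mm10 and GRCh38 and the software Seurat 3.1.0 and R 3.6.0. Of 31053 features, 30934 matched GENCODE vM21 for coordinates. Members and gene lists were chosen with earlier results of these data known.

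Counts of the selected cells were summed per library and tested with edgeR 4.0.16 in R 4.3.3 (TMM scaling, filterByExpr, robust quasi-likelihood F test, Benjamini-Hochberg adjustment). The class-by-group term used the library as a block. DESeq2 1.42.0, RLE scaling, other filters, other cell rules and leaving out each library were alternatives, and leaving out 3 barcodes was added after seeing the data. Libraries are pools of 2 tumours, so p-values measure the spread between pools. Named genes were the 12 of smallest unadjusted p in each direction with at least 20 CPM in the higher group and no overlap, up to 6 of highest level per list and every list member at an unadjusted p below 0.05, up to 15 per gate, 8 per class-by-group term, and the retinoid genes. T cells were cells with at least 3 UMIs of Cd3d, Cd3e and Cd3g together and no UMI of C1qa, C1qb or C1qc. Scrublet marked 678, 601, 415 and 236 barcodes at 0.8% per 1000 barcodes as doublets, which stayed in the main values. The tests were tried on simulated data. Genes with near-identical copies are uncertain. Some genes that met these rules are not reported here.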

Additional observations from a re-analysis of the deposited data

Results flagged for a closer look

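The genes below had a class-by-group term that differed between the Ccr7 Fscn1 cells and another dendritic gate, with at least 10 UMIs in each gate and group, by edgeR with an adjusted p below 0.05. Values are the log2 difference (DKO over control) in the Ccr7 Fscn1 cells minus that in the gate, and causes were not tested.

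Against the type 2 gate the term was -2.76 for Chil3 (-0.84 without the 3 barcodes rich in other cells' genes) and -2.24 for Thbs1 (-2.83 without them), and neither was called without them. Both are known from macrophages and monocytes. In control 2, whose barcode rich in macrophage genes is 1 of the 3 left out, Chil3 was at 153 CPM against 10.7, 4.52 and 23.1 CPM in the other libraries.

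Against the type 1 gate the term was -0.82 for H2-Ab1 (-0.69 without the 3 barcodes), -0.79 for H2-Eb1 (-0.66) and -0.68 for Cd74 (-0.55), none of them called without the barcodes. It was 3.76 for Egr1 (2.07) and 3.31 for Fn1 (1.76), and DKO 2, which held the barcode rich in tumour genes, had Egr1 at 135 and Fn1 at 176 CPM. Neither was called without the barcodes. It was -2.57 for Ccl4 (-2.48) and -1.42 for Serpinb6b (-1.26), neither called without them. Lyz2 (-2.87, and -1.77 without the barcodes) and Rgs1 (-1.89, and -1.69) were called both ways. Rgs1, a regulator of G protein signalling, was at 1469, 1077, 1294 and 1599 CPM in the Ccr7 Fscn1 cells and at 54.4, 85.6, 180 and 298 CPM in the type 1 gate, so it was the gate that lay higher in DKO.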

How the results depend on the processing

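Of the genes of the DKO comparison, 0 were called with RLE scaling, at least 20 UMIs, without Scrublet doublets, with the stricter and looser rules and at 5% mitochondrial UMIs, 1 by DESeq2, 52 without a filter, 10 without cells holding other cells' markers and 2 without the 3 barcodes. Leaving out 1 library gave 10 to 359 genes (31 when control 1 was dropped, 10 for control 2, 359 for DKO 1 and 14 for DKO 2), where the lone library of a group is assumed to vary like the other group. With the replicate number as a block 31 genes were called, but the numbers do not pair the libraries (correlation of their deviations -0.049 over 5853 genes). Over 839 alternatives of 64 gene results, 0 reversed, 40 lost and 99 gained a call. The share of Ccr7 Fscn1 cells reversed, to -5.93 percentage points, as a share of the 3 dendritic gates, and was 0.219 to 0.260 without 1 library. Against the type 2 gate 5 genes were called with RLE, 32 without a filter, 9 without the 3 barcodes and 14 to 63 without 1 library. Against the type 1 gate these were 12, 7, 4 and 3 to 13. With 60 to 84 cells per library, genes of few UMIs were at the limit of this depth. The causes of these differences were not tested.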
